A study of Mus musculus with 2 samples.

Results

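Transcript levels of 10 genes that make, store and clear catecholamines were followed in the adrenal gland of the newborn mouse. The genes were chosen by symbol from the known pathway, matched to the deposited tables by Ensembl identifier, and all 10 were found among 43346 Ensembl genes. They were Th, Ddc, Dbh and Pnmt for synthesis, Gch1 for the cofactor, Slc18a1, Slc18a2 and Cyb561 for vesicular storage, Slc6a2 for reuptake and Maoa for breakdown. The series holds 2 total RNA libraries of strain B6NCrl at postnatal day 0, labelled pup 2 and pup 1, and each was made from the 2 adrenals of its pup. Both pups belong to 1 group with no treatment or mutation in the labels, the labels name 1 pregnant female and 1 donor for both, and sex was not collected. The whole gland was used, so cortex, medulla and attached tissue were measured together.

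Catecholamines are made from tyrosine in chromaffin cells, the secretory cells of the adrenal medulla, and in sympathetic neurons. Tyrosine hydroxylase (Th) forms L-DOPA in the rate-limiting step, and aromatic L-amino acid decarboxylase (Ddc) turns it into dopamine. Dopamine is carried into granules, where dopamine beta-hydroxylase (Dbh) makes noradrenaline, and phenylethanolamine N-methyltransferase (Pnmt) in the cytosol makes adrenaline from it. Glucocorticoid from the surrounding cortex is known to sustain Pnmt in the medulla, while sympathetic neurons make noradrenaline and largely lack Pnmt.

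On the mm10 build, with gene bounds from GENCODE M21, the 10 protein-coding genes lie on 7 chromosomes. Of the synthesis enzymes, Th (ENSMUSG00000000214) lies at chr7:142892752-142931128 on the minus strand and Dbh (ENSMUSG00000000889) at chr2:27165233-27183200 on the plus strand. Chromosome 11 carries Ddc (ENSMUSG00000020182) at chr11:11814101-11898144 on the minus strand, Pnmt (ENSMUSG00000038216) at chr11:98386450-98388181 on the plus strand and Cyb561 (ENSMUSG00000019590) at chr11:105933702-105953336 on the minus strand. Chromosome 8 carries Slc18a1 (ENSMUSG00000036330) at chr8:69037711-69089235 on the minus strand and Slc6a2 (ENSMUSG00000055368) at chr8:92960079-93001667 on the plus strand. Gch1 (ENSMUSG00000037580) lies at chr14:47153895-47189413 on the minus strand and Slc18a2 (ENSMUSG00000025094) at chr19:59260896-59296012 on the plus strand. Maoa (ENSMUSG00000025037) lies at chrX:16619698-16687818 on the plus strand, beside its paralog Maob on the opposite strand of the X chromosome.

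The library of pup 2 held 40800539 estimated counts and that of pup 1 held 41510071. Levels are given as TPM, a unit that corrects for transcript length, so that genes can be compared, and that sums to the same total in every library. Differences between the pups are given as the log2 ratio of pup 2 over pup 1, from estimated counts after TMM scaling, which sets the bulk of genes equal in both libraries. Over the 13870 genes whose mean count reached 100, the log2 ratio from TPM exceeded the one from scaled counts by 0.39 (median). Each pup is 1 library, so no replicate checks a difference between them and no test was made; the intervals cover counting error only.

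Promoter sequences are shown for Th and Slc18a2, the 2 genes with a full cAMP response element near the start, and for both starts of Ddc, whose transcripts are described further on. RefSeq (GRCm38.p6) gave windows of 250 bases before to 50 after the start for 6 of the 10 genes (Th, Ddc, Dbh, Gch1, Slc18a2 and Maoa). Pnmt, Slc18a1, Slc6a2 and Cyb561 had no entry. Each sequence runs 5′ to 3′ on the strand of the gene for 260 bases, with base 251 as the first transcribed base in RefSeq. In Th (chr7:142899986-142900245, minus strand) and Slc18a2 (chr19:59260628-59260887, plus strand) capitals mark the cAMP response element. In the upstream start of Ddc (chr11:11898135-11898394, minus strand) they mark an AP-1 site and a TATA box read on the opposite strand. In the downstream start of Ddc (chr11:11890399-11890658, minus strand) they mark a CCAAT box read on the opposite strand.
Th: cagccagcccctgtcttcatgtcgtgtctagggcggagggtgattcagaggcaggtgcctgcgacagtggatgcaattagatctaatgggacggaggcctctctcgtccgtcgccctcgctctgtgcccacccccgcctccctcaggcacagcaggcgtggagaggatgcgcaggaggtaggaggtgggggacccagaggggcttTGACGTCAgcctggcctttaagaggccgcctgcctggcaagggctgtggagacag
Slc18a2: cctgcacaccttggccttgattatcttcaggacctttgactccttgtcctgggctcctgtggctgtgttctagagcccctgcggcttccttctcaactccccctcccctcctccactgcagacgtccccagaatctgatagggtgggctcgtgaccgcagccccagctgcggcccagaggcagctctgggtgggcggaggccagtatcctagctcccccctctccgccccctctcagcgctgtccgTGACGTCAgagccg
Ddc, upstream start: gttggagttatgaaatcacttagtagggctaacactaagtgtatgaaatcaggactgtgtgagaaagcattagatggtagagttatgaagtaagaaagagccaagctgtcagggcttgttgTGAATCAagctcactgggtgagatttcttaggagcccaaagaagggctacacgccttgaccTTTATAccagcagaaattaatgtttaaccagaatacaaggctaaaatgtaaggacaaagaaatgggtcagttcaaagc
Ddc, downstream start: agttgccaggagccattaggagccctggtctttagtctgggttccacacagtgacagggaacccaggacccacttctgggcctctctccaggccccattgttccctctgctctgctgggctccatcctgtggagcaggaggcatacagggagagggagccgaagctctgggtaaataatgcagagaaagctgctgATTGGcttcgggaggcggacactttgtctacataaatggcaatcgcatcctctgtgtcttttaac

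The cAMP response element TGACGTCA, searched on both strands, was in 1.79% of 32851 RefSeq promoter windows of 300 bases. In Th the match began at base 206 of the window, and in Slc18a2 it began at base 247 and spanned the RefSeq start site. GENCODE M21 starts the leading transcripts elsewhere. For Th the start is 142900014 in GENCODE and 142899995 in RefSeq. For Slc18a2 it is 59260896 in GENCODE and 59260878 in RefSeq, so by GENCODE the Slc18a2 element lies before the start. The shorter core TGACG, which the full element contains, was in 5 of the 7 windows of these genes and in 20.8% of all windows. The AP-1 site TGANTCA was in 2 of 7 windows and in 7.81% of all, the CCAAT box CCAAT in 3 of 7 and 37.4%, and the TATA box TATAAA in 2 of 7 and 13.6%. The GC box GGGCGG was in 4 of 7 windows and in 35.7% of all. A site for EGR factors, GCGNGGGCG, was in the Th window and in 5.55% of all, the E-box CAGCTG was in the Slc18a2 window and in 16.3% of all, and the homeodomain core TAATTA was in 0 of 7 and 5.29%. All motifs were searched on both strands and overlapping matches were allowed. These matches describe letters only.

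The synthesis enzymes were abundant in both newborn adrenals, led by Th. Th stood at 572.66 TPM in pup 2 (rank 242 of all Ensembl genes) against 303.02 TPM in pup 1 (rank 413). Pnmt, the enzyme that makes adrenaline, stood at 403.73 TPM in pup 2 against 145.90 TPM in pup 1. Dbh stood at 179.79 TPM in pup 2 against 161.16 TPM in pup 1. Th and Pnmt were therefore the members with the widest absolute spread, and Dbh was nearly level. Ddc, the only synthesis enzyme lower in pup 2 by TPM, stood at 70.34 TPM in pup 2 against 98.62 TPM in pup 1.

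Over the pups the synthesis enzymes averaged 438 ± 191 TPM for Th, 275 ± 182 TPM for Pnmt, 170 ± 13.2 TPM for Dbh and 84.5 ± 20.0 TPM for Ddc (SD, n = 2). The summed TPM of these 4 enzymes was 1227 in pup 2 and 709 in pup 1. Th made up 46.7% of that sum in pup 2 and 42.8% in pup 1. The share of Pnmt was 32.9% in pup 2 and 20.6% in pup 1, whereas Dbh held 14.7% in pup 2 and 22.7% in pup 1. Ddc held 5.73% in pup 2 and 13.9% in pup 1. In bulk tissue, fewer cells of a type and less RNA per cell cannot be told apart.

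Gch1, GTP cyclohydrolase, makes the first intermediate of tetrahydrobiopterin, the cofactor of tyrosine hydroxylase. It stood at 46.29 TPM in pup 2 against 41.55 TPM in pup 1, a mean of 43.9 ± 3.35 TPM (SD, n = 2). Per unit of Th transcript, Gch1 was at 0.0808 in pup 2 and 0.137 in pup 1.

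Of the storage genes, Cyb561 was the most abundant, and by TPM it differed least between the pups. Cyb561, the granule membrane cytochrome that passes electrons inward to regenerate the ascorbate used by dopamine beta-hydroxylase, stood at 122.65 TPM in pup 2 against 123.56 TPM in pup 1. Slc18a2 encodes VMAT2, the vesicular monoamine transporter of neurons that chromaffin cells also express, and stood at 27.67 TPM in pup 2 against 48.67 TPM in pup 1. Slc18a1 encodes VMAT1, the transporter of neuroendocrine cells, and stood at 26.26 TPM in pup 2 against 18.86 TPM in pup 1. The 2 transporters were thus near equal in pup 2, while Slc18a2 was the higher in pup 1. Slc18a1 held 48.7% of their summed TPM in pup 2 and 27.9% in pup 1, although the sum itself was 53.93 TPM in pup 2 against 67.53 TPM in pup 1.

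Both genes of reuptake and breakdown were lower in pup 2. Slc6a2, the noradrenaline transporter of the plasma membrane, stood at 11.98 TPM in pup 2 (rank 7613) against 42.06 TPM in pup 1 (rank 2621). Maoa, the mitochondrial monoamine oxidase that oxidises noradrenaline and serotonin, stood at 26.07 TPM in pup 2 against 43.87 TPM in pup 1. Slc6a2 was the lowest of the 10 genes in pup 2, while in pup 1 it was above Gch1 and Slc18a1.

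**Figure D1:**
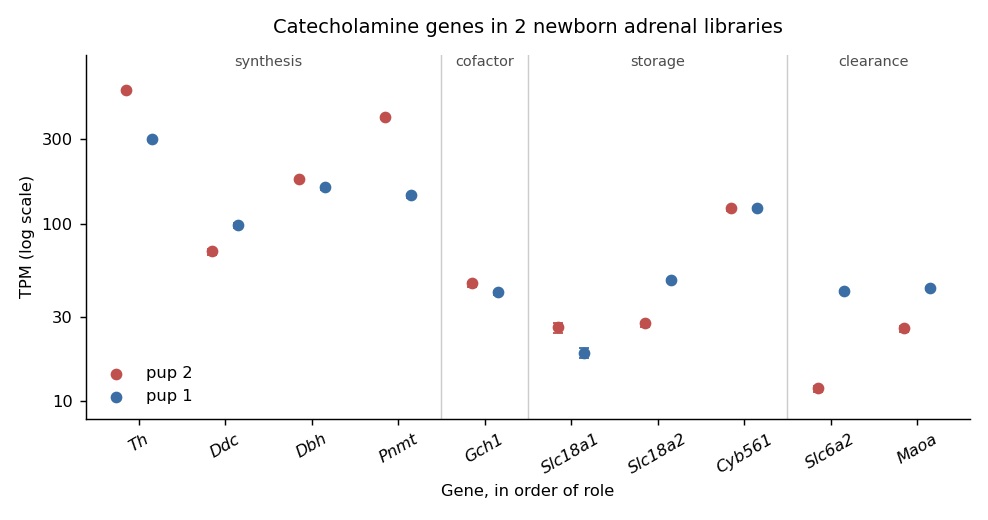
TPM (log axis) of the 10 catecholamine genes in pup 2 and pup 1, with the quantifier's intervals as bars. Th lies highest at 572.66 TPM in pup 2 against 303.02 TPM in pup 1, and Slc6a2 shows the widest proportional gap, with 11.98 TPM in pup 2 against 42.06 TPM in pup 1.

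By mean TPM the order was Th, Pnmt, Dbh, Cyb561, Ddc, Gch1, Slc18a2, Maoa, Slc6a2 and Slc18a1. Neighbours in that order did not overlap across the pups for Dbh above Cyb561, Cyb561 above Ddc, and Ddc above Gch1. The pups' values overlapped for the other pairs. Pnmt was above Dbh in pup 2 and below it in pup 1. Gch1 was above Slc18a2 in pup 2 and below it in pup 1, and Slc6a2 was below Slc18a1 in pup 2 and above it in pup 1. The order of Pnmt and Dbh and the lower part, from Gch1 to Slc18a1, were therefore not settled by 2 pups. Th was above Pnmt, Slc18a2 above Maoa and Maoa above Slc6a2 in both pups.

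With scaled counts, 4 of the 10 genes differed by over 2-fold between the pups, against 9.13% of the 13870 genes. Pnmt was the 1 gene over 2-fold higher in pup 2, against 2.78% of genes, with 13918 counts in pup 2, 6199 counts in pup 1 and a log2 ratio of 1.08 (95% counting interval 1.04 to 1.13). Over 2-fold lower in pup 2 were 3 genes, against 6.35% of genes. Slc6a2 had 2345 counts in pup 2 and 10132 in pup 1, a log2 ratio of -2.20 (-2.26 to -2.13), which 0.411% of the genes lay at or below. Slc18a2 had 3359 counts in pup 2 and 7274 in pup 1, a log2 ratio of -1.20 (-1.26 to -1.14). Maoa had 3476 counts in pup 2 and 7201 in pup 1, a log2 ratio of -1.14 (-1.19 to -1.08). By deposited TPM, Slc18a2 (-0.81) and Maoa (-0.75) lay within 2-fold, and spike-in scaling put all 3 genes above 0. The gene of adrenaline synthesis thus lay at one end of the 10 and the genes of reuptake, of vesicular uptake by VMAT2 and of oxidation at the other.

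The other genes lay within 2-fold. Th had 32457 counts in pup 2 and 21148 in pup 1, a log2 ratio of 0.53 (0.51 to 0.56). Ddc had 3481 counts in pup 2 and 6224 in pup 1, a log2 ratio of -0.92 (-0.98 to -0.86), the member just inside the 2-fold limit. The 2 enzymes of consecutive steps therefore differed in direction by scaled counts. Spike-in scaling put both above 0, at 3.10 for Th and 1.65 for Ddc. Cyb561 was at -0.38 (-0.42 to -0.34), Dbh at -0.23 (-0.26 to -0.20) and Gch1 at -0.23 (-0.29 to -0.17). For Slc18a1, at 0.07 (-0.03 to 0.16), the counting interval held 0. The median over the 10 genes was -0.31 and over all genes 0.01, and the middle 50% of all genes lay between -0.36 and 0.30. By deposited TPM, which runs higher in pup 2 for most genes, the ratio was 0.16 for both Dbh and Gch1, so their direction turned with the scaling.

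**Figure D2:**
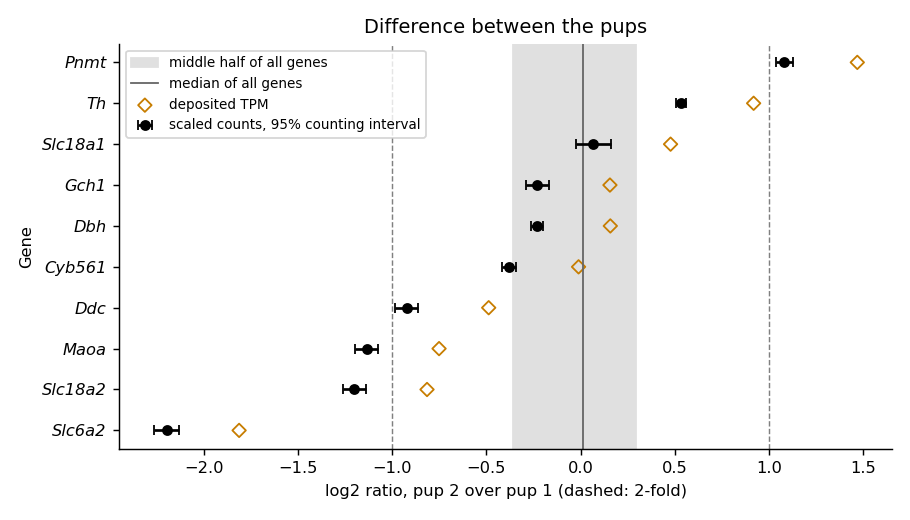
Log2 ratio of pup 2 over pup 1 for each gene, from scaled counts (black, with 95% counting intervals) and from deposited TPM (orange), with the middle 50% of all genes in grey and 2-fold dashed. Pnmt lies beyond the upper line, and Maoa, Slc18a2 and Slc6a2 beyond the lower one with scaled counts. Dbh and Gch1 change sign with TPM. Spike-in scaling, which is not drawn, puts all 10 genes above 0 and the median of all genes at 2.58.

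The quantifier's TPM intervals did not overlap between the pups for 9 of the 10 genes, against 74% of all genes. Of these, 5 were higher in pup 2, against 60.4% of genes, and 4 were lower, against 13.6% of genes. Cyb561 was the gene whose intervals overlapped, with bounds of 118.4 and 123.9 TPM in pup 2, against 119.8 and 124.8 TPM in pup 1. The intervals go with the posterior mean TPM, and in pup 2 the deposited TPM of Th and Pnmt lay above the upper bound. The intervals were also shifted by the median excess of the TPM ratio over the scaled-count ratio in all genes, a log2 value of 0.39. This alternative was chosen after seeing the data. With it, 2 genes were higher in pup 2 (30.6% of all genes), 7 were lower (30.5%), and Slc18a1 overlapped.

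Ratios between genes of 1 library do not depend on how libraries are scaled. Pnmt to Th was 0.705 in pup 2 and 0.481 in pup 1, and the mean log2 value was -0.78 ± 0.39 (SD, n = 2). Th was therefore the higher transcript in both pups. Pnmt to Dbh was 2.25 in pup 2 and 0.905 in pup 1, 2.48-fold apart, with a mean log2 value of 0.51 ± 0.93 (SD, n = 2). The spread between the pups exceeded that mean, so the order of Pnmt and Dbh was not fixed by these libraries.

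Other ratios to Th were lower in pup 2. Ddc to Th was 0.123 in pup 2 and 0.325 in pup 1. Dbh to Th was 0.314 in pup 2 and 0.532 in pup 1, while Cyb561 to Dbh, a pair that works on the same granule reaction, was 0.682 in pup 2 and 0.767 in pup 1. Slc18a1 to Th was 0.0459 in pup 2 and 0.0622 in pup 1, 1.36-fold apart, less than for Ddc or Dbh. The folds for Slc18a2, Maoa and Slc6a2 exceeded that for Ddc. Slc18a2 to Th was 0.0483 in pup 2 and 0.161 in pup 1, and Maoa to Th was 0.0455 in pup 2 and 0.145 in pup 1. Slc6a2 to Th was 0.0209 in pup 2 and 0.139 in pup 1, so pup 1 held 6.63-fold more Slc6a2 per Th transcript.

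**Figure D3:**
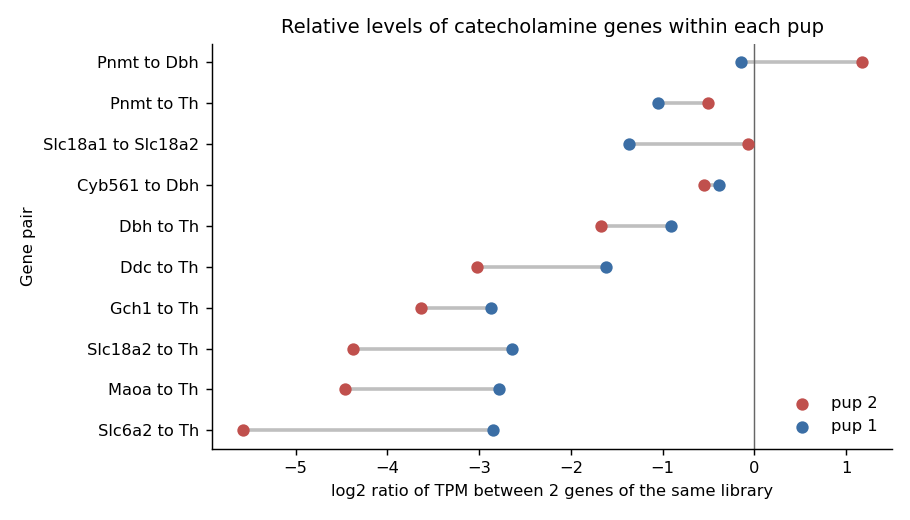
Log2 TPM ratios between pairs of genes within each library, pup 2 beside pup 1. Pnmt to Dbh lies on opposite sides of 0, at 1.17 in pup 2 and -0.14 in pup 1, and Slc6a2 to Th lies lowest in pup 2 at -5.58, against -2.85 in pup 1.

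The 3 lowest ratios belonged to genes with long transcripts, so length was examined across the table. Genes with an effective length between 3 and 4 kb had a median log2 ratio of 0.07, and genes above 4 kb a median of 0.00. The only length bin far from 0, below 1 kb at -0.29, held none of the 10 genes. Pnmt lay just past its edge, with an effective length of 1052 bases in pup 2 and 1053 in pup 1. With a trend over length and GC content removed, the log2 ratio of Pnmt moved from 1.08 to 1.28. It was -2.16 for Slc6a2, -1.20 for Slc18a2 and -1.04 for Maoa. The same 4 genes lay over 2-fold apart, against 8.57% of all genes. The part of length in the ratios of single genes was not tested.

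Each of the 10 genes used the same leading transcript in both pups. For Th, Dbh, Pnmt and Slc6a2 that transcript held over 99% of the gene's TPM in both pups, and Gch1, Slc18a2 and Maoa have 1 annotated transcript. Cyb561 gave 87.6% in pup 2 and 85.9% in pup 1 to ENSMUST00000019734. Ddc and Slc18a1 were the genes with a divided output.

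Ddc is known in rat and human to start at different first exons in neural and non-neural tissue. Its leading transcript, ENSMUST00000109659, held 65.5% in pup 2 and 70.5% in pup 1, a mean of 68.0 ± 3.50% (SD, n = 2). The 4 transcripts that begin at the downstream start together held 66.8% in pup 2 and 71.6% in pup 1. The 2 transcripts from the upstream start held 0% in pup 2 and 1.01% in pup 1, with 0 and 74 estimated counts for pup 2 and pup 1. By posterior means 1 of the upstream transcripts, ENSMUST00000066237, held 2.35% in pup 2 and 1.67% in pup 1, so a small output from the upstream start was not separable from 0. Most Ddc transcript was thus assigned to the downstream start, whose printed window holds the CCAAT box. The remaining 33.2% in pup 2 and 27.4% in pup 1 went to transcripts with other starts, mainly a noncoding one, ENSMUST00000136810, at 29.5% in pup 2 and 22.3% in pup 1. An antisense gene inside Ddc, 1700042O10Rik, stood at 0.31 TPM in pup 2 against 0.38 TPM in pup 1.

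For Slc18a1 the leading protein-coding transcript held 58.7% in pup 2 and 62.2% in pup 1. Transcripts with a retained intron held 41% in pup 2 and 37.8% in pup 1, so the level of coding Slc18a1 transcript was below the gene's TPM in both pups. The 5′ end of Slc18a1 overlaps Atp6v1b2, a proton pump subunit gene on the opposite strand, which stood at 98.37 TPM in pup 2 against 81.44 TPM in pup 1. The labels and files used here do not state how strand was handled, and without strand the reads of the overlap cannot be told apart. Of the other genes, Slc18a2, Ddc and Cyb561 overlap annotated genes on the opposite strand that stood below 2 TPM in both pups.

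**Figure D4:**
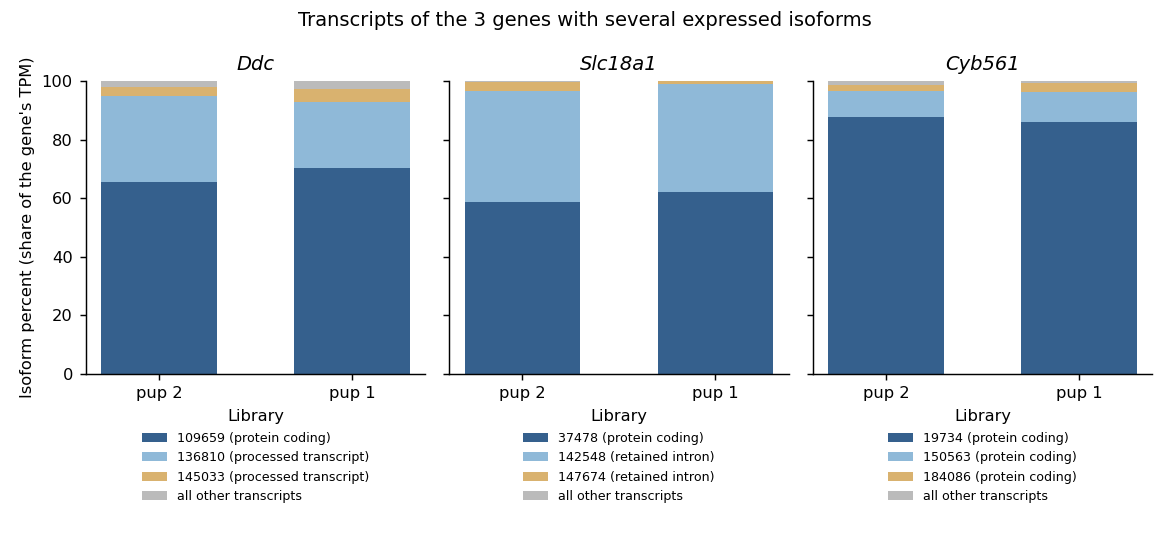
Share of each gene's TPM (percent) in its transcripts, pup 2 beside pup 1. Ddc and Slc18a1 divide their output, with leading transcripts at 65.5% and 58.7% in pup 2, against 70.5% and 62.2% in pup 1.

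Beyond the 10 genes, 50 genes of 8 supporting lists were examined, and 42 of them reached a mean count of 100. Of the 42, 1 was over 2-fold higher in pup 2 and 2 were lower, 7.14% together beside the 9.13% of all genes. The median log2 ratio of the 42 was -0.04. That share lay near the background.

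In the tetrahydrobiopterin list 0 of 6 genes were over 2-fold higher and 1 was lower, with a median log2 ratio of -0.20. Qdpr, which regenerates the cofactor, stood at 142 TPM in pup 2 against 106 TPM in pup 1. Pts, the second enzyme of its synthesis, stood at 84.9 TPM in pup 2 against 83.8 TPM in pup 1, and Spr, the last enzyme, at 71.3 TPM in pup 2 against 56.4 TPM in pup 1. The gene over 2-fold apart was Gchfr, the feedback regulator of GTP cyclohydrolase, named after its value was seen, at 7.71 TPM in pup 2 against 18.2 TPM in pup 1 (log2 ratio -1.62). The subunits of the large neutral amino acid carrier that brings in tyrosine, Slc3a2 and Slc7a5, lay within 2-fold by scaled counts.

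The granule's proton pump, which drives both vesicular transporters, had 0 of 16 genes over 2-fold apart and a median log2 ratio of -0.05. Its highest genes were Atp6v0c at 492 TPM in pup 2 against 389 TPM in pup 1, Atp6v1e1 at 375 TPM in pup 2 against 228 TPM in pup 1, and Atp6v1f at 287 TPM in pup 2 against 282 TPM in pup 1. The pump serves all acidic organelles, so these levels are not those of chromaffin granules alone. In the ascorbate and copper list 0 of 4 genes with enough counts were over 2-fold apart, with a median of 0.06. The copper chaperone gene Atox1 stood at 632 TPM in pup 2 against 429 TPM in pup 1, the copper transporter gene Slc31a1 at 61.2 TPM in pup 2 against 62.8 TPM in pup 1, and the ascorbate transporter gene Slc23a2 at 27.4 TPM in pup 2 against 12.3 TPM in pup 1. Slc23a1, the other ascorbate transporter, was below 1 TPM in both pups. In the methyl donor list, which serves the Pnmt reaction, 0 of 3 genes (Mat2a, Mat2b and Ahcy) were over 2-fold apart and the median was 0.10.

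Among other clearance genes, 0 of 6 with enough counts were over 2-fold apart, with a median log2 ratio of -0.53. Aldh2, which oxidises the aldehydes that monoamine oxidase forms, stood at 236 TPM in pup 2 against 99.0 TPM in pup 1 (log2 ratio 0.84). Sult1a1, a sulfotransferase, stood at 31.3 TPM in pup 2 against 37.3 TPM in pup 1. Maoa exceeded Maob 3.24-fold in pup 2 and 4.13-fold in pup 1, so Maoa was the main monoamine oxidase transcript in both. The dopamine transporter gene Slc6a3 and the organic cation transporter genes Slc22a2 and Slc22a3 were below 1 TPM in both pups. In this gland Slc6a2 was thus the plasma membrane carrier for catecholamines of the SLC6 family with more than 1 TPM. Carriers of other families in the list were not all below 1 TPM.

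Of the regulators of Pnmt, 0 of 2 with enough counts were over 2-fold apart, with a median of -0.51. Nr3c1, the glucocorticoid receptor, stood at 23.4 TPM in pup 2 against 20.0 TPM in pup 1, and Egr1, an immediate early factor, at 23.2 TPM in pup 2 against 29.4 TPM in pup 1. Tfap2a was below 1 TPM in both pups.

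Markers of the cell types in the gland differed between the pups beside these genes. By scaled counts all 9 genes of the sympathetic neuron list were over 2-fold lower in pup 2. The shift of 2.57 that spike-in scaling adds would, however, put them above 0, like the 10 catecholamine genes. Whether these 9 genes mark sympathetic neurons alone was not tested. Their log2 ratios ran from -2.26 up to -1.32, and their summed TPM was 408 in pup 2 and 1282 in pup 1. The highest of them, Stmn2 and Gap43, stood at 113 and 97.9 TPM in pup 2, against 366 and 292 TPM in pup 1. The ratio of Slc6a2 (-2.20) lay inside that range, while those of Slc18a2 (-1.20) and Maoa (-1.14) lay just above it. In the chromaffin cell list 3 of 8 genes (Chga, Chgb and Scg2) were over 2-fold higher in pup 2, 2 were over 2-fold lower, and the summed TPM was 3102 in pup 2 and 1418 in pup 1. Chga and Chgb stood at 1522 and 791 TPM in pup 2, against 557 and 265 TPM in pup 1. The adrenal cortex list had 5 of 7 genes over 2-fold higher in pup 2 and a summed TPM of 17156 in pup 2 and 6435 in pup 1, led by Hsd3b1 and Cyp21a1. The part of these cell types in the ratios of the 10 genes was not tested.

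**Figure D5:**
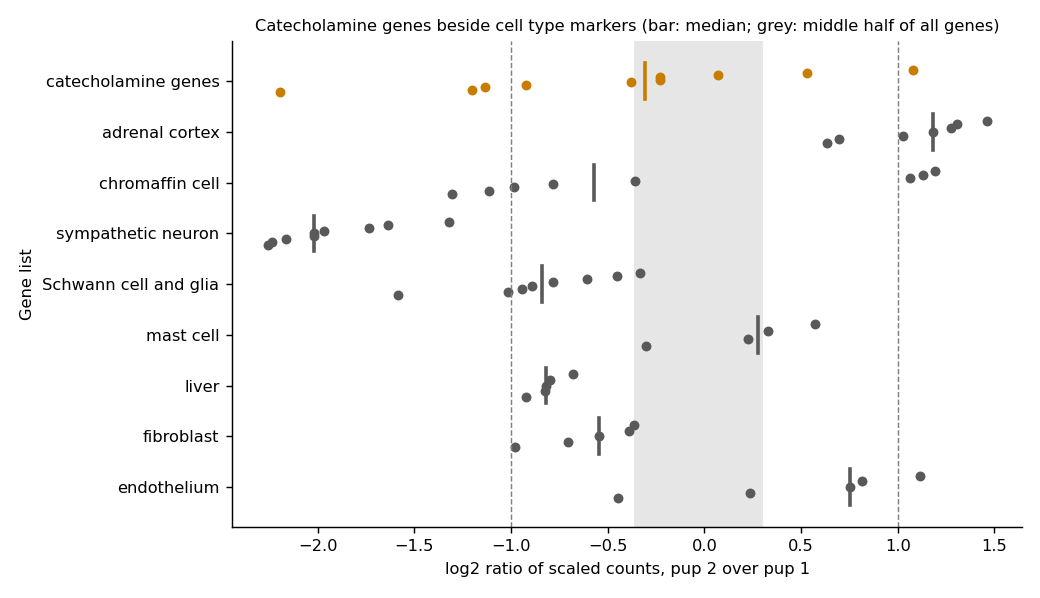
Log2 ratio of pup 2 over pup 1 for the 10 catecholamine genes and for 8 marker lists (stomach and kidney tubule not drawn), 1 point per gene that reached a mean count of 100, from scaled counts. The genes of the sympathetic neuron list all lie between -2.26 and -1.32, and the cortex markers all lie above 0. Pnmt (1.08) and Slc6a2 (-2.20) are at the ends of the catecholamine genes. Spike-in scaling would move every point up by 2.57.

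Markers of tissue around the gland, and of glia, fibroblasts and endothelium, also differed. In the stomach list all 4 genes with enough counts were over 2-fold lower in pup 2, with a summed TPM of 6.34 in pup 2 and 141 in pup 1, and Gkn1 was at 0 in pup 2. Kidney tubule markers summed to 1.92 TPM in pup 2 against 3.91 TPM in pup 1, and 5 of 6 were below 1 TPM in both. Schwann cell and glia markers had 2 of 8 genes over 2-fold lower in pup 2 and summed to 96.5 TPM in pup 2 against 180 TPM in pup 1. The liver and fibroblast lists had 0 of 5 genes each over 2-fold apart, with medians of -0.82 and -0.54. Their levels were high in both pups. Liver markers summed to 1403 TPM in pup 2 against 1843 TPM in pup 1, and fibroblast markers to 1876 TPM against 2038 TPM. The endothelium list had 1 of 5 genes over 2-fold higher in pup 2, with a median of 0.76. The part of these tissues and cell types in the results was not tested. Spike-ins took 0.00250% of counts in pup 2 and 0.0138% in pup 1.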

How the data were processed

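Total RNA of 2 newborn adrenal libraries, 1 per pup, was analysed. Per the labels' protocols, RNA was extracted with Ambion mirVana, a SMARTer ultra low input manual is listed, libraries started from 10 ng and spike-ins were added. Both samples form 1 group, with the pup number as replicate. The members and all lists were chosen with earlier results of these data known.

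The authors deposited gene and transcript tables. Per the file headers, they hold expected counts, which need not be whole, posterior mean counts with their standard deviation (a score), TPM and FPKM. The quantifier's intervals for TPM are deposited beside these values, as is the isoform percent, a transcript's share of its gene's TPM. The deposited text files name mm10 and GENCODE M4. The sources used here do not state the aligner, the quantifier or the handling of strand.

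Spike-in (97) and numbered (26248) rows were left out, which leaves 43346 genes. Names, coordinates and overlaps were taken from GENCODE M21 (also mm10), and 42462 genes had a symbol. Counts were rounded, and 15.9% in pup 2 and 15.3% in pup 1 were not whole. Ratios used counts plus 0.5 after TMM scaling (edgeR 4.0.16, R 4.3.3), with exact binomial 95% intervals that cover counting error only. Member counts lay between 1762 and 32457, and their posterior SD was at most 1.34 counts. A difference was counted past 2-fold where the mean count reached 100. The scripts were tested on simulated data. Alternatives were DESeq2 1.42.0 size factors, total counts, spike-ins, TPM, FPKM, posterior means, pseudocount 2 and a lower minimum. Others were a 1.5-fold threshold, a length and GC trend, TPM over nuclear genes, and each pup left out. Named genes were all members, the 3 highest and up to 3 genes below 1 TPM of each pathway list, and the 2 highest of each marker list described by name, apart from some genes that are not reported here.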

Additional observations from a re-analysis of the deposited data

How the results depend on the processing

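The median log2 ratio of the 10 genes was -0.31 and became -0.20 with total counts, 0.073 with TPM, -0.20 with FPKM and 2.26 with spike-in counts. These scalings moved the median of all genes by 0.11, 0.39, 0.12 and 2.57. Genes over 2-fold apart numbered 4 and became 2 with TPM (12.2% of all genes) and 9 with spike-ins (98.3%). With a 1.5-fold threshold 5 genes passed, against 26% of all genes. Spike-in scaling put all 10 genes above 0, so each of the 7 genes below 0 changed direction. The 3 that had been over 2-fold lower came to 1.37 (Slc18a2), 0.37 (Slc6a2) and 1.43 (Maoa). This scaling rests on 1022 spike-in counts in pup 2 and 5717 in pup 1. DESeq2 size factors, posterior mean counts and pseudocount 2 left each of the 10 ratios within its counting interval. With expected counts, which are not corrected for length, log2 Pnmt to Th was -1.50 and log2 Pnmt to Dbh was -0.70. Leaving out a pup gave -1.05 to -0.50 for Pnmt to Th and -0.14 to 1.17 for Pnmt to Dbh. The cause of the TPM and spike-in shifts was not tested. Mean levels rose when TPM was taken over nuclear genes other than Rn7s1, Rn7s2 and Rn7sk. Th went from 438 to 534 TPM and Cyb561 from 123 to 152 TPM. The means of 4 genes (Ddc, Dbh, Gch1 and Cyb561) moved by more than the SD over the pups, and those of 6 did not. No paired analysis was possible because both libraries form 1 group. Depth did not limit the 10 genes, whereas 2 pups limit every spread given.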

Other observations

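Genes for other amines were measured beside the catecholamine genes, and 1 of 2 with enough counts was over 2-fold higher in pup 2. Hdc, histidine decarboxylase, which makes histamine, stood at 26.5 TPM in pup 2 against 8.92 TPM in pup 1 (log2 ratio 1.18). Slc6a4, the serotonin transporter, stood at 3.41 TPM in pup 2 against 1.34 TPM in pup 1 (log2 ratio 0.95). The tryptophan hydroxylase genes Tph1 and Tph2, which begin serotonin synthesis, were below 1 TPM in both pups. Mast cell markers, from cells known to hold histamine, summed to 147 TPM in pup 2 against 105 TPM in pup 1, and 0 of 4 with enough counts were over 2-fold apart. The part of mast cells in the Hdc ratio was not tested.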
